A study of Homo sapiens with 6 samples.

Results

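The 35 human genes described here belong to the NF-kB pathway or encode cytokines, chemokines and an adhesion molecule that the pathway is known to control. They comprised 5 NF-kB subunits, 6 inhibitors and feedback regulators, 2 genes named for their induction by TNF, 3 survival adaptors, 1 adhesion gene, 6 CXC chemokines, 4 CC chemokines and 8 cytokines. They were picked by symbol from a list, with no measured value in the rule, but the list was chosen with earlier results of these data known. All 35 were found among the 19903 genes listed in each library. Messenger RNA had been measured by RNA sequencing in 6 libraries, 1 with a vector for malin (labelled as NHLRC1 overexpression) and 1 with an empty vector from each of 3 lines labelled as lung cancer lines. The lines were one labelled H2030, A549 and H1299, the last 2 being common laboratory lines of non-small-cell lung cancer, and all cells were labelled as passage 5. Malin, the product of NHLRC1, is an E3 ubiquitin ligase that works with the phosphatase laforin on glycogen. The promoter of the vectors, and whether the cells were clones or pools, are not given in the sources used here. The question was how these genes stood in each line and whether they differed between the malin and the empty-vector library of a line.

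NF-kB is a family of transcription factors made of paired subunits. In resting cells the IkB inhibitors hold the pairs in the cytoplasm, and signals from TNF, interleukin-1 or Toll-like receptors lead to ubiquitin-dependent removal of the inhibitor, so that the pairs enter the nucleus and switch on target genes. Many of the targets are the pathway's own inhibitors, and others recruit neutrophils and monocytes, so lung epithelial and lung cancer cells can be a source of such chemokines.

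NHLRC1 stood at 3.69 FPKM in the malin library and 0.18 FPKM in the empty-vector library labelled H2030, at 6.82 and 1.21 FPKM in A549, and at 119.2 and 2.85 FPKM in H1299. FPKM is the number of sequenced fragments of a gene per kilobase of transcript, scaled to the library total, so levels can be compared between genes. The libraries held an estimated 8300000 to 10700000 fragments each. The column of the malin library labelled H2030 carried the short name of HEK293T, an embryonic kidney line, in its header, whereas its labels name H2030, so the pair is called labelled H2030 throughout. All 5 epithelial markers reached 1 FPKM in some library. Their summed level was 159 FPKM (malin) and 182 FPKM (empty vector) in that pair, 1945 and 2615 FPKM in A549, and 951 and 952 FPKM in H1299. KRT8 and KRT18 made up most of each sum. KRT19 was at 0 in both libraries labelled H2030 and at 0 FPKM (malin) and 0.07 FPKM (empty vector) in H1299. In A549 it had 48.1 and 42.0 FPKM. EPCAM had another order, with 5.41 FPKM (malin) and 8.55 FPKM (empty vector) in that pair, 0.95 and 1.75 FPKM in A549, and 0.19 and 0.17 FPKM in H1299. CDH1 had 2.71 and 2.56 FPKM in that pair, 1.67 and 3.27 FPKM in A549, and 0 and 0.02 FPKM in H1299. Of 9 leukocyte and macrophage markers, 4 reached 1 FPKM in any library, with sums of 6.11 to 56.9 FPKM that were highest in H1299 through CD68, and the defining leukocyte gene PTPRC was at most 0.07 FPKM in every library. The 4 lung-lineage markers summed to at most 4.35 FPKM in any library, in the malin library labelled H2030. NKX2-1 had 3.78 FPKM (malin) and 1.85 FPKM (empty vector) in the pair labelled H2030. It had 0.60 and 0.77 FPKM in H1299 and was at 0 in both A549 libraries. In bulk RNA, fewer cells that make a transcript and less of it per cell cannot be told apart.

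The pathway's genes divided by line far more than by vector. Of the 35 members, 21 (60.0%) were higher in both A549 libraries than in the other 4, against 15.4% of 17541 protein-coding genes. The 21 include IL6, IL1A and IL1B, which were under 1 FPKM everywhere. A further 11 (31.4%) were highest in both H1299 libraries, against 18.0% of all genes. The pair labelled H2030 was highest for 2 members (5.71%), CXCL16 and CCL5, although it was the highest for 35.7% of all genes. TNF, which lay at or under 0.19 FPKM everywhere, was the 1 member whose 2 highest lines overlapped. In all, 15 members reached 1 FPKM in every library, and 4 (IL6, IL1A, IL1B and TNF) reached it in none. Differences between lines were tested with limma on log2(FPKM + 1), called at an adjusted p of 0.05 and at least 2-fold. With no filter on level, 0 members were higher and 20 of 35 were lower in the pair labelled H2030 than in A549, where 16.4% and 7.79% of all genes were called. Against H1299, 3 members were higher and 12 were lower in the pair labelled H2030, with 15.1% and 7.78% of all genes called. Between A549 and H1299, 13 members were higher and 6 were lower in A549, with 8.34% and 9.25% of all genes called. Each line had 1 library per vector, so these p-values measure only the spread between these 6 libraries.

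**Figure D1:**
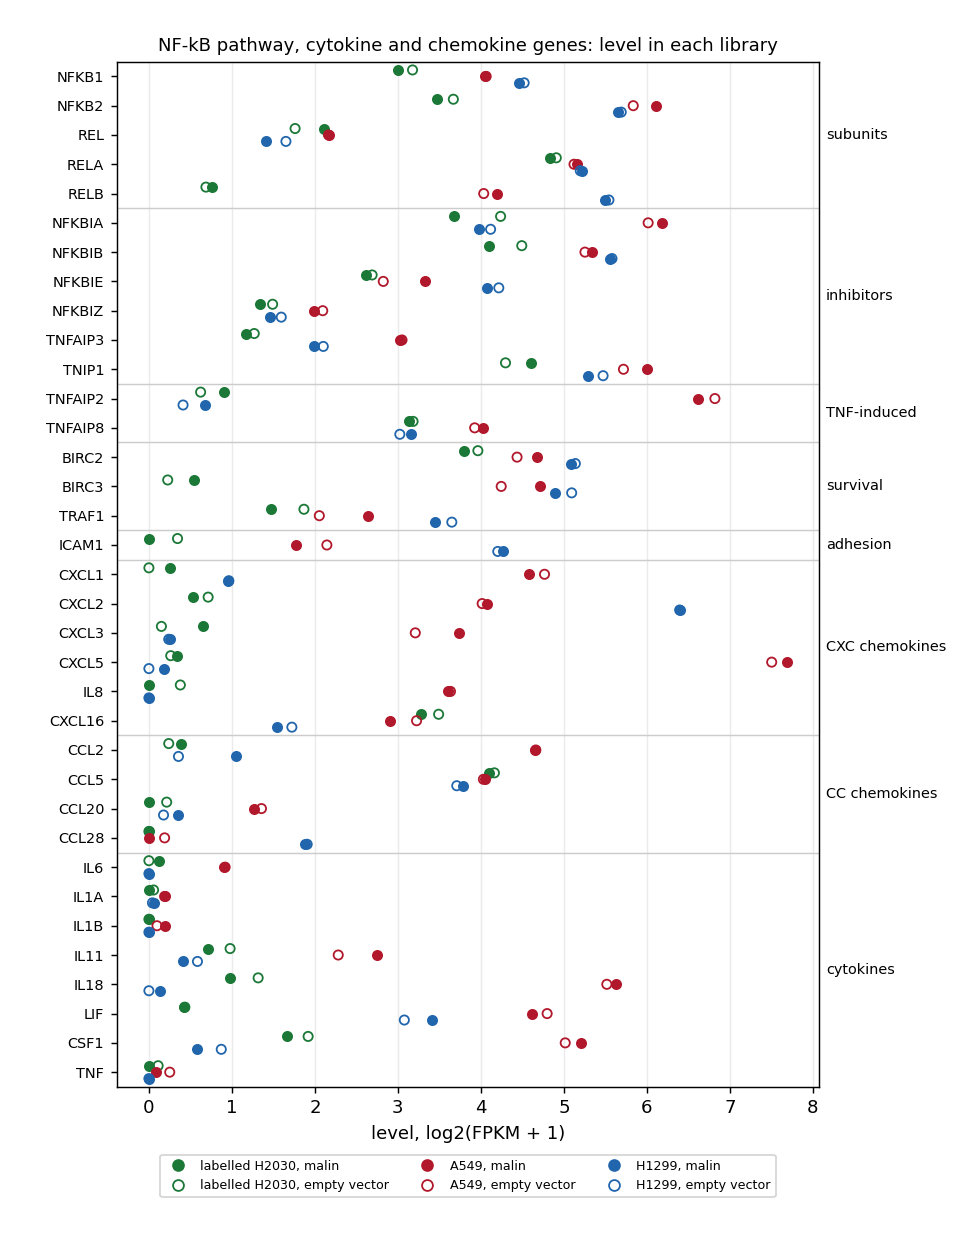
Level of each of the 35 genes on the log2(FPKM + 1) scale in the 6 libraries, grouped by role; filled points are malin and open points empty-vector libraries, coloured by line. The 2 points of a line lie close together for most genes, while the lines are spread by up to 7.51 log2 units, the difference between A549 and H1299 for CXCL5.

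The 5 subunits were detected in all 3 lines, RELB at under 1 FPKM in the pair labelled H2030. RELA, the main activating subunit, had the narrowest range, with 27.5 FPKM (malin) and 29.03 FPKM (empty vector) in the pair labelled H2030, 34.6 and 33.8 FPKM in A549, and 36.3 and 35.7 FPKM in H1299. Its largest difference, between the pair labelled H2030 and H1299, was -0.34 ± 0.10 (log2, SE; limma adjusted p = 0.0222) and did not reach 2-fold. RELB, the subunit of the slower non-canonical branch, had 0.70 FPKM (malin) and 0.61 FPKM (empty vector) in the pair labelled H2030, 17.4 and 15.4 FPKM in A549, and 44.0 and 45.6 FPKM in H1299. No RELB value of 1 line overlapped that of another, and all 3 limma contrasts were called, at -3.39 for the pair labelled H2030 over A549, -4.79 for it over H1299 and -1.40 for A549 over H1299 (SE 0.12 each; adjusted p = 1.39e-05, 7.97e-06 and 0.000292).

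NFKB2, which encodes the p100 precursor that pairs with RELB, had 10.1 FPKM (malin) and 11.7 FPKM (empty vector) in the pair labelled H2030, 68.0 and 56.1 FPKM in A549, and 49.2 and 50.6 FPKM in H1299. It was thus lower in the pair labelled H2030 than in A549 by -2.40 ± 0.14 and than in H1299 by -2.10 ± 0.14 (log2, SE; limma adjusted p = 5.17e-05 and 8.46e-05), while A549 and H1299 differed by 0.30 ± 0.14 and were not called (adjusted p = 0.0987). NFKB1, the p105 precursor of p50, had 7.03 FPKM (malin) and 8.04 FPKM (empty vector) in the pair labelled H2030, 15.6 and 15.7 FPKM in A549, and 21.0 and 22.0 FPKM in H1299. NFKB1 was lower in the pair labelled H2030 than in H1299 by -1.40 ± 0.11 (log2, SE; limma adjusted p = 0.000172). REL, a subunit best known from lymphocytes, had 3.30 FPKM (malin) and 2.39 FPKM (empty vector) in the pair labelled H2030, 3.51 and 3.48 FPKM in A549, and 1.65 and 2.14 FPKM in H1299, and none of its line contrasts was called. The REL exons share 43.3% of their bases with an annotated non-coding transcript on the same strand, so its fragments can include that transcript's.

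The inhibitors were expressed in every library. NFKBIA encodes IkB-alpha, the inhibitor that NF-kB itself rapidly re-induces, and had 11.8 FPKM (malin) and 17.9 FPKM (empty vector) in the pair labelled H2030, 71.8 and 63.7 FPKM in A549, and 14.8 and 16.4 FPKM in H1299. Both A549 libraries lay above all others, and the other lines overlapped. In limma the pair labelled H2030 was lower than A549 by -2.14 ± 0.18, and A549 was higher than H1299 by 2.05 ± 0.18 (log2, SE; adjusted p = 0.000178 and 0.000289). NFKBIB (IkB-beta) ran otherwise, with 16.1 FPKM (malin) and 21.5 FPKM (empty vector) in the pair labelled H2030, 39.4 and 37.1 FPKM in A549, and 46.2 and 46.8 FPKM in H1299. Its difference between the pair labelled H2030 and A549 (-1.0 ± 0.14, limma adjusted p = 0.00128) lay at the 2-fold threshold. It fell short of that with a pseudocount of 5 FPKM (-0.87), without the A549 malin library (-0.86) or without the malin library labelled H2030 (-0.79).

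NFKBIE, IkB-epsilon, had 5.14 FPKM (malin) and 5.45 FPKM (empty vector) in the pair labelled H2030, 9.04 and 6.08 FPKM in A549, and 15.8 and 17.6 FPKM in H1299. It was lower in A549 than in H1299 by -1.07 ± 0.19 (limma adjusted p = 0.00388). This difference fell short of 2-fold with a pseudocount of 5 FPKM (-0.80) or median-of-ratios scaling (-0.98). It also fell short without the empty-vector library of A549 (-0.76) or of H1299 (-0.89). TNFAIP3, the ubiquitin-editing enzyme A20 that shuts the signal off, had 1.25 FPKM (malin) and 1.41 FPKM (empty vector) in the pair labelled H2030, 7.11 and 7.28 FPKM in A549, and 2.96 and 3.29 FPKM in H1299. Its lines did not overlap, and it was lower in the pair labelled H2030 than in A549 by -1.82 ± 0.13 (limma adjusted p = 0.00011), a call lost with a pseudocount of 5 FPKM (-0.95). TNIP1, the A20-binding partner ABIN1, had 23.3 FPKM (malin) and 18.6 FPKM (empty vector) in the pair labelled H2030, 63.0 and 51.6 FPKM in A549, and 38.1 and 43.4 FPKM in H1299, with the pair labelled H2030 below A549 by -1.41 ± 0.15 (limma adjusted p = 0.00039). NFKBIZ, a nuclear IkB-like protein that helps switch on some late targets, had 1.53 FPKM (malin) and 1.81 FPKM (empty vector) in the pair labelled H2030, 2.98 and 3.27 FPKM in A549, and 1.74 and 2.02 FPKM in H1299. A549 was the highest in NFKBIZ, the other lines overlapped, and no contrast reached 2-fold.

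Many of these genes are known to be NF-kB targets themselves. RefSeq promoter windows on GRCh38.p14, from 250 bases before to 50 bases after a gene start, were matched for 27 of the 35 members. The kappaB decamer consensus, searched on both strands with overlapping matches counted, lay in a window of 15 of the 27 (55.6%), against 13.3% of 27305 genes. Members had more windows per gene than all genes. Counted by window, it lay in 41.5% of 41 member windows, against 11.3% of 35116 windows. The 3 stretches below are shown because they carry matches beside regulators whose levels differed between lines, with the matching bases in capitals, 5′ to 3′ on the gene's strand. The NFKB1 stretch is chr4:102501300-102501329 (plus strand), that of NFKBIA chr14:35404811-35404840 (minus strand), and that of TNFAIP3, with 2 matches near a later RefSeq start, chr6:137867182-137867223 (plus strand).
NFKB1: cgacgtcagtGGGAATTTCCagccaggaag
NFKBIA: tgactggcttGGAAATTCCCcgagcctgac
TNFAIP3: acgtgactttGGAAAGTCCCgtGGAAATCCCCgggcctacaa
A match describes letters in a reference sequence and not binding in these cells.

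**Figure D2:**
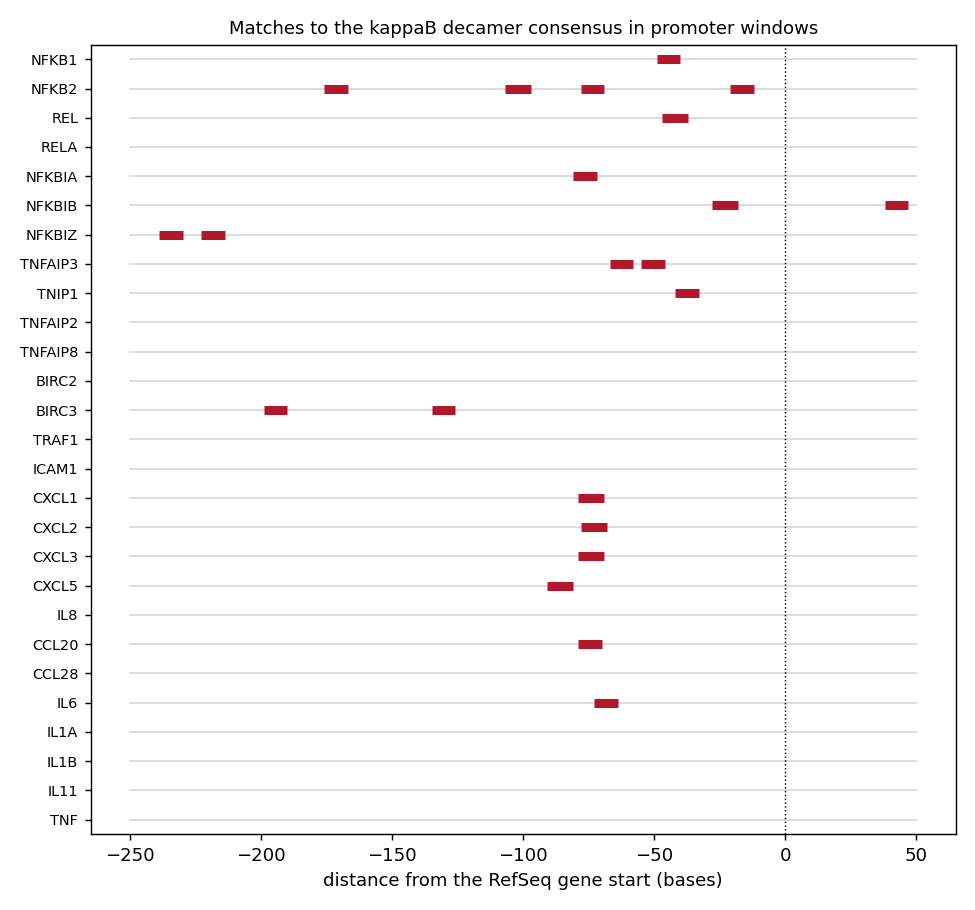
Positions of matches to the kappaB decamer consensus (red) relative to the RefSeq gene start for the 27 members with a promoter window, all starts of a gene drawn on 1 line. Of the 27 genes 15 hold a match, and those of CXCL1, CXCL2, CXCL3 and CXCL5 lie within 91 bases before the start.

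The survival adaptors were highest in H1299. BIRC3 encodes cIAP2, a ubiquitin ligase at TNF receptors that limits cell death and is a standard NF-kB target. It had 0.46 FPKM (malin) and 0.17 FPKM (empty vector) in the pair labelled H2030, 25.1 and 18.0 FPKM in A549, and 28.7 and 33.1 FPKM in H1299. Like RELB it was under 1 FPKM in both libraries labelled H2030, at -4.09 ± 0.19 over A549 and -4.61 ± 0.19 over H1299 (log2, SE; limma adjusted p = 2.6e-05 and 2.26e-05), whereas A549 and H1299 differed by -0.52 ± 0.19 and were not called. Its neighbour BIRC2, which encodes the related cIAP1, kept 12.8 FPKM (malin) and 14.6 FPKM (empty vector) in the pair labelled H2030, against 24.6 and 20.6 FPKM in A549 and 32.9 and 34.2 FPKM in H1299. The 2 genes lie side by side on the plus strand of chromosome 11, BIRC3 at chr11:102317484-102339403 and BIRC2 at chr11:102347214-102378670 (GRCh38.p14). The BIRC3 window held 2 decamer matches and the BIRC2 windows held 0, and whether this bears on their levels was not tested. The BIRC3 stretch is shown for its 2 matches (chr11:102317275-102317368, plus strand, matches in capitals).
BIRC3: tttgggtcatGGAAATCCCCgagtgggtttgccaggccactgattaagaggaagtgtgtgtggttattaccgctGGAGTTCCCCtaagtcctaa

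TRAF1, a TNF-receptor adaptor, had 1.78 FPKM (malin) and 2.65 FPKM (empty vector) in the pair labelled H2030, 5.25 and 3.15 FPKM in A549, and 9.88 and 11.6 FPKM in H1299. It was lower in the pair labelled H2030 than in H1299 by -1.88 ± 0.25 (log2, SE; limma adjusted p = 0.00114). It was also lower in A549 than in H1299, by -1.20 ± 0.25 (limma adjusted p = 0.00764). That call was lost with a pseudocount of 5 FPKM (-0.78), and without the empty-vector library of A549 (-0.75) or of H1299 (-1.05). ICAM1, the surface ligand that leukocyte integrins grip, was at 0 FPKM (malin) and 0.27 FPKM (empty vector) in the pair labelled H2030, 2.41 and 3.42 FPKM in A549, and 18.2 and 17.4 FPKM in H1299. Its 3 lines did not overlap and all 3 contrasts were called, at -1.78, -4.06 and -2.28 for the pair labelled H2030 over A549, for it over H1299 and for A549 over H1299 (SE 0.16 each), though the first was lost with a pseudocount of 5 FPKM (-0.62). Antisense transcripts overlap 22.0% of the exonic bases of ICAM1, and without a stated strand setting their fragments cannot be told apart.

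The 2 TNF-induced genes differed in breadth. TNFAIP2, a protein linked to vesicle docking and membrane protrusions, had 0.88 FPKM (malin) and 0.54 FPKM (empty vector) in the pair labelled H2030, 96.9 and 112 FPKM in A549, and 0.60 and 0.33 FPKM in H1299. The mean of the A549 libraries was 147 times that of the next line, and A549 was higher than H1299 by 6.17 ± 0.17 (log2, SE; limma adjusted p = 7.55e-06). TNFAIP8, a regulator of cell survival, had 7.81 FPKM (malin) and 8.08 FPKM (empty vector) in the pair labelled H2030, 15.2 and 14.2 FPKM in A549, and 7.90 and 7.13 FPKM in H1299. A549 lay above the other lines, which overlapped, and no TNFAIP8 contrast reached 2-fold.

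The 5 CXC chemokines that attract neutrophils through the receptor CXCR2 lie in 1 stretch of chromosome 4. IL8, now named CXCL8, is at chr4:73740569-73743716, CXCL1 at chr4:73869393-73871308, CXCL5 at chr4:73995642-73998677, CXCL3 at chr4:74036589-74038689 and CXCL2 at chr4:74097040-74099195 (GRCh38.p14), the first 2 on the plus and the others on the minus strand. CXCL5 had 0.26 FPKM (malin) and 0.20 FPKM (empty vector) in the pair labelled H2030, 205 and 180.5 FPKM in A549, and 0.13 and 0 FPKM in H1299. It was the most abundant of the 35 genes in A549, higher there than in H1299 by 7.51 ± 0.13 and lower in the pair labelled H2030 than in A549 by -7.30 ± 0.13 (log2, SE; limma adjusted p = 3.3e-06 and 2.58e-06).

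CXCL2 had another order than its neighbours. It had 0.45 FPKM (malin) and 0.64 FPKM (empty vector) in the pair labelled H2030, 15.8 and 15.2 FPKM in A549, and 83.2 and 83.1 FPKM in H1299. In limma it was lower in A549 than in H1299 by -2.35 ± 0.12 and lower in the pair labelled H2030 than in H1299 by -5.77 ± 0.12 (log2, SE; adjusted p = 4.8e-05 and 5.81e-06). CXCL3, the next gene along, had 0.57 FPKM (malin) and 0.11 FPKM (empty vector) in the pair labelled H2030, 12.4 and 8.25 FPKM in A549, and 0.19 and 0.18 FPKM in H1299. CXCL1 had 0.19 FPKM (malin) and 0 FPKM (empty vector) in the pair labelled H2030, 22.9 and 26.2 FPKM in A549, and 0.94 and 0.95 FPKM in H1299. Thus CXCL1 and CXCL3 were higher in A549 than in H1299 by 3.71 ± 0.16 and 3.23 ± 0.18, opposite to CXCL2 (limma adjusted p = 2.59e-05 and 6.35e-05). IL8 had 0 FPKM (malin) and 0.30 FPKM (empty vector) in the pair labelled H2030 and 11.2 and 11.4 FPKM in A549, and was listed at 0 in both H1299 libraries.

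**Figure D3:**
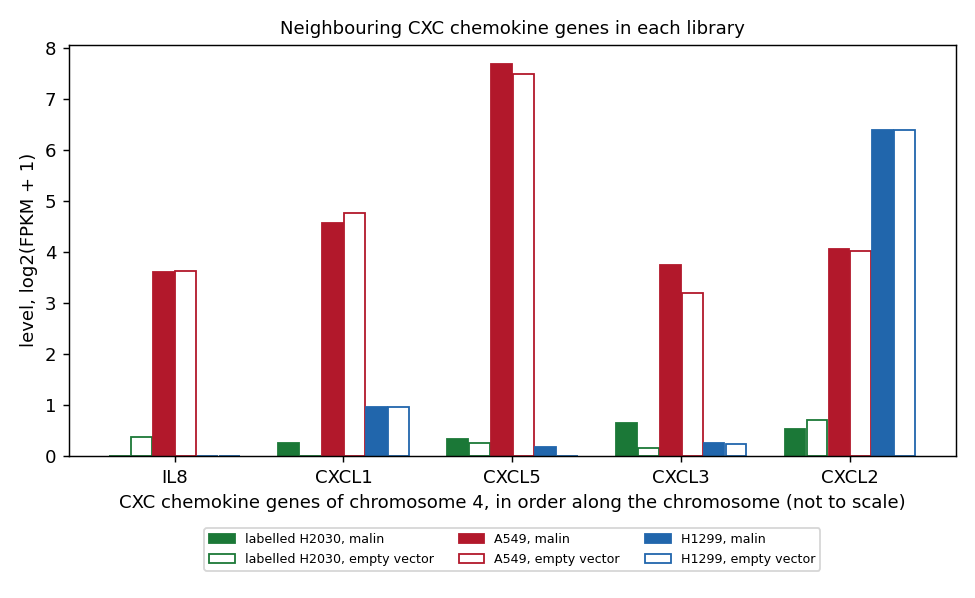
Level on the log2(FPKM + 1) scale of the 5 neighbouring CXC chemokine genes in the 6 libraries, in their order along chromosome 4; filled bars are malin and open bars empty-vector libraries. All 5 are seen in A549, CXCL2 alone exceeds 1 FPKM in H1299, and none does in the pair labelled H2030.

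The bases just upstream of these 5 genes are shown because those of CXCL1, CXCL2 and CXCL3 are much alike over the short stretch compared. Whether they bear on the line order of any of these genes was not tested. Each stretch covers bases 100 to 11 before the gene start (RefSeq, GRCh38.p14), with capitals for the decamer matches (2 that overlap in each of the first 4 genes) and in IL8 for the 9 letters GGAATTTCC. They are chr4:73869293-73869382 (CXCL1, plus strand), chr4:74099206-74099295 (CXCL2, minus), chr4:74038700-74038789 (CXCL3, minus), chr4:73998688-73998777 (CXCL5, minus) and chr4:73740469-73740558 (IL8, plus).
CXCL1: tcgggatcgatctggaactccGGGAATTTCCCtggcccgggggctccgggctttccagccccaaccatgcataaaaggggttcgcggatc
CXCL2: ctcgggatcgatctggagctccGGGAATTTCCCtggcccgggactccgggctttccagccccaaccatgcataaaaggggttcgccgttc
CXCL3: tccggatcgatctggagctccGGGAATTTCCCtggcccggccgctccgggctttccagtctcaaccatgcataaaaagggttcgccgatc
CXCL5: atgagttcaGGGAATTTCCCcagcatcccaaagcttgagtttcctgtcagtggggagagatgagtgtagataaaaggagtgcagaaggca
IL8: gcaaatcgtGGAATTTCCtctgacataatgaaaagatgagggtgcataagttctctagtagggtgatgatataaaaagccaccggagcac
In global alignment CXCL2 shared 93.4% of aligned columns with CXCL1 and 90.1% with CXCL3, and CXCL1 shared 91.1% with CXCL3, while CXCL5 shared 49.0% to 51.9% with these 3 and IL8 shared 42.3% to 44.8%. The 9 letters GGAATTTCC, chosen after these windows were read, lay on either strand of a window of 11 of the 27 members (40.7%), NFKB1, NFKBIA, REL and ICAM1 among them, against 0.56% of all genes. Counted by window, they lay in 26.8% of member windows, against 0.461% of all windows. Choosing the letters in this way favours a higher share in the members, so these shares only describe them. CXCL1, CXCL2 and CXCL3 count singly among the 11 although their stretches are much alike. The transcripts of CXCL1, CXCL2 and CXCL3 share 0.6% to 5.7% of their 50-base stretches and 0% of their 100-base stretches, so some short fragments could have been assigned to a neighbour.

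CXCL16, a chemokine of another kind that is made as a membrane protein and binds CXCR6, had 8.69 FPKM (malin) and 10.2 FPKM (empty vector) in the pair labelled H2030, 6.49 and 8.35 FPKM in A549, and 1.92 and 2.30 FPKM in H1299. It was higher in the pair labelled H2030 than in H1299 by 1.75 ± 0.13 (log2, SE; limma adjusted p = 0.000125), but its difference from A549, 0.32 ± 0.13, did not pass (adjusted p = 0.0701).

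Among the CC chemokines, CCL5, which draws T cells, was the most even. It had 16.2 FPKM (malin) and 16.9 FPKM (empty vector) in the pair labelled H2030, 15.5 and 15.3 FPKM in A549, and 12.8 and 12.1 FPKM in H1299, and no limma contrast reached 2-fold (0.09, 0.39 and 0.29 log2 for the pair labelled H2030 over A549, for it over H1299 and for A549 over H1299; SE 0.11 each). CCL2, the main monocyte attractant, had 0.31 FPKM (malin) and 0.18 FPKM (empty vector) in the pair labelled H2030, 24.1 and 24.3 FPKM in A549, and 1.07 and 0.28 FPKM in H1299. A549 exceeded H1299 by 3.95 ± 0.20, and the pair labelled H2030 was lower than A549 by -4.34 ± 0.20 (log2, SE; limma adjusted p = 4.56e-05 and 2.71e-05). CCL20, the ligand of CCR6, had 0 FPKM (malin) and 0.16 FPKM (empty vector) in the pair labelled H2030, 1.41 and 1.56 FPKM in A549, and 0.27 and 0.13 FPKM in H1299. CCL28, a mucosal chemokine, was listed at 0 in both libraries labelled H2030, at 0 FPKM (malin) and 0.14 FPKM (empty vector) in A549, and at 2.68 and 2.75 FPKM in H1299. The A549 libraries thus stood highest in CCL20 and the H1299 libraries in CCL28.

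Most cytokines were highest in A549. IL18, a cytokine that prompts interferon-gamma production, had 0.97 FPKM (malin) and 1.49 FPKM (empty vector) in the pair labelled H2030, 48.3 and 44.8 FPKM in A549, and 0.10 and 0 FPKM in H1299. It was higher in A549 than in H1299 by 5.50 ± 0.17. Its smaller difference between the pair labelled H2030 and H1299 (1.08 ± 0.17) was called at a limma adjusted p of 0.00224. That difference fell short of 2-fold with a pseudocount of 5 FPKM (0.30), median-of-ratios scaling (0.97) or quantile normalization (0.57). It also fell short without the empty-vector library of H1299 (0.95) or of the pair labelled H2030 (0.85). CSF1, the macrophage growth factor, had 2.18 FPKM (malin) and 2.78 FPKM (empty vector) in the pair labelled H2030, 35.9 and 31.4 FPKM in A549, and 0.50 and 0.83 FPKM in H1299. A549 was higher than H1299 by 4.38 ± 0.17 (log2, SE; limma adjusted p = 1.79e-05).

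LIF, an interleukin-6-type cytokine, was shared by A549 and H1299, with 0.34 FPKM (malin) and 0.35 FPKM (empty vector) in the pair labelled H2030, 23.5 and 26.8 FPKM in A549, and 9.61 and 7.44 FPKM in H1299. Each line stood apart, at -4.28, -2.81 and 1.46 log2 for the pair labelled H2030 over A549, for it over H1299 and for A549 over H1299 (SE 0.16 each; limma adjusted p = 1.64e-05, 6.54e-05 and 0.000715). IL11, of the same type, had 0.64 FPKM (malin) and 0.97 FPKM (empty vector) in the pair labelled H2030, 5.71 and 3.86 FPKM in A549, and 0.33 and 0.50 FPKM in H1299. It was higher in A549 than in H1299 by 2.02 ± 0.21 (limma adjusted p = 0.00056), a call lost with a pseudocount of 5 FPKM (0.85). The classic inflammatory cytokines were low throughout. IL6 had 0.87 FPKM (malin) and 0.89 FPKM (empty vector) in A549, an estimated 10 fragments each, and at most 0.09 FPKM elsewhere, while IL1A, IL1B and TNF stayed at or under 0.19 FPKM in all 6 libraries. At this depth 1 to 3 fragments lay behind such values, so no order of the lines can be read from them.

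By role, the 18 chemokines and cytokines had their highest line mean in A549 for 14 genes, in H1299 for CXCL2 and CCL28, and in the pair labelled H2030 for CXCL16 and CCL5. The 14 include IL6, IL1A, IL1B and TNF, which rest on at most 10 fragments per library. The 14 subunits, inhibitors and survival adaptors had theirs in A549 (6) or H1299 (8). Of them 13, all but REL, had their lowest line mean in the pair labelled H2030, where NFKBIA and NFKBIZ overlapped with H1299. These groups were formed after the values were seen. The share of all genes with their highest or lowest line mean in each line was not computed, so these counts only describe the members. Over the 29 members with a mean of at least 1 FPKM, limma called 0 higher and 19 lower in the pair labelled H2030 than in A549 (20.8% and 10.6% of 12184 genes). It called 3 higher and 11 lower in that pair than in H1299 (19.0% and 10.7%), and 12 higher and 5 lower in A549 than in H1299 (11.3% and 12.8%). The 3 higher than in H1299 were CXCL16, IL18 and CSF1, and 1 was called without the empty-vector library labelled H2030. The 5 lower in A549 became 3 without the empty-vector library of A549 or of H1299. A gene that is high in 1 line passes this filter through that line, so these counts support nothing beyond those over all 35. The epithelial marker sums also differed between the lines, and their part in these differences was not tested.

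Set beside the line differences, those between vectors were small. In limma with cell line as a block, 0 of the 29 tested members and 0.0% of 12184 genes passed an adjusted p of 0.05. At an unadjusted p under 0.05 there were 0 members and 213 genes (1.75%), and the members' adjusted p ran from 0.927 to 0.999. Without the pair labelled H2030, 0 members and 1 gene passed. Within a line there was 1 library per vector and so no test, and differences are given as log2((malin + 1) / (empty vector + 1)). Past 1.5-fold, the pair labelled H2030 had 0 members higher and 0 lower with malin (4.28% and 7.33% of genes tested). A549 had 1 higher, TRAF1, and 0 lower (0.542% and 0.566%), and H1299 had 1 higher, CCL2, and 0 lower (0.328% and 0.148%). No member reached 2-fold in any line on this scale.

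TRAF1 stood at 5.25 FPKM with malin against 3.15 FPKM with the empty vector in A549, a log2 difference of 0.59, whereas the differences were -0.39 in the pair labelled H2030 and -0.21 in H1299. Over the 3 lines its limma estimate was -0.0027 ± 0.20 (log2, SE; adjusted p = 0.999), and its direction hung on which lines were taken, being 0.19 without the pair labelled H2030 and -0.30 without A549. In H1299, the CCL2 difference of 0.69 rested on an estimated 7 fragments with malin and 2 with the empty vector. Their ratio of 3.78 had a 95% exact interval of 0.72 to 37.3, which covers counting error only. In A549, with 24.1 FPKM (malin) and 24.3 FPKM (empty vector), CCL2 differed by -0.01. NFKBIA in the pair labelled H2030 lay just inside the 1.5-fold limit at -0.56, with differences of 0.17 in A549 and -0.14 in H1299.

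CXCL3 and CXCL5 were higher with malin in all 3 lines (2 of 29, 6.90%, against 11.0% of genes tested). NFKB1, NFKBIZ, TNFAIP3 and CXCL16 were lower in all 3 (4 of 29, 13.8%, against 11.3%), so neither share was far from that of all genes. In H1299 CXCL3 and CXCL5 rested on values near 0, with an estimated 2 fragments of CXCL3 in each library and 3 of CXCL5 with malin against 0 with the empty vector. CXCL5 was near 0 in the pair labelled H2030 too, at an estimated 6 fragments with malin against 4. Their ratio of 1.26 had a 95% exact interval of 0.298 to 6.06, which covers counting error only. CXCL3 differed by 0.50 in the pair labelled H2030 (an estimated 6 fragments against 1), by 0.53 in A549 and by 0.01 in H1299. Its limma estimate was 0.35 ± 0.15 (log2, SE; p = 0.0566, adjusted p = 0.927), and the exact paired permutation test gave p = 0.25, two-sided, the smallest that 3 pairs allow. CXCL16 differed by -0.21 in the pair labelled H2030, -0.32 in A549 and -0.18 in H1299, with a limma estimate of -0.24 ± 0.11 (p = 0.0664, adjusted p = 0.927) and the same exact permutation p of 0.25.

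**Figure D4:**
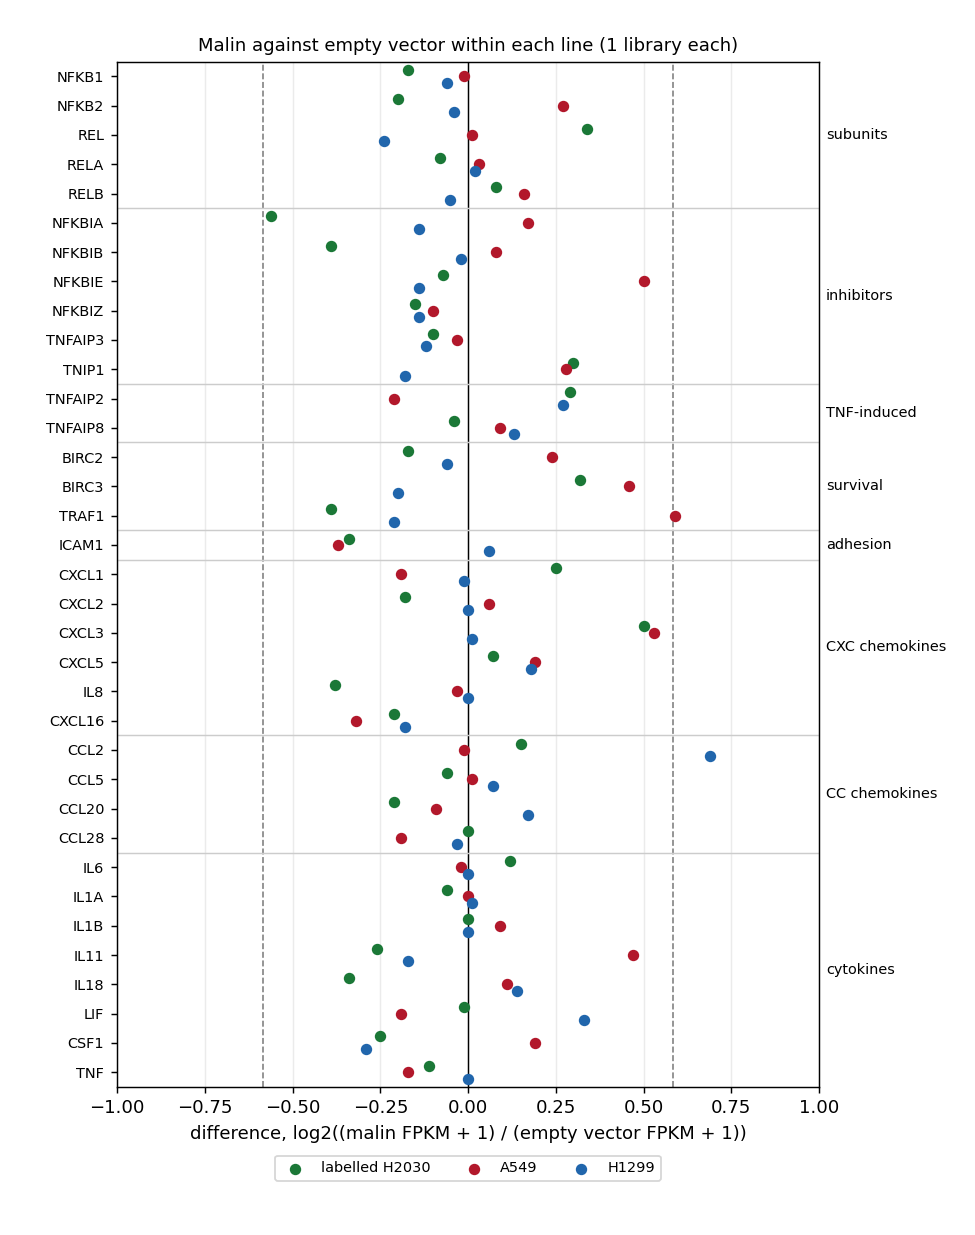
Difference between the malin and the empty-vector library of each line, as log2((malin FPKM + 1) / (empty vector FPKM + 1)), for the 35 genes by role, with 1 library per point and dashed lines at 1.5-fold. TRAF1 in A549 (0.59) and CCL2 in H1299 (0.69) lie past the lines.

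The direction of the small differences varied by line. Of the 29 tested members, 9 were higher and 20 lower with malin in the pair labelled H2030 (45.9% and 53.2% of genes tested), 19 were higher and 10 lower in A549 (49.5% and 48.8%), and 11 were higher and 17 lower in H1299 (51.5% and 46.7%). The median member difference was -0.10, 0.08 and -0.04 log2 in these lines, against -0.03, 0.0 and 0.005 for all genes tested, while the SD of the difference over all genes tested was 0.40, 0.18 and 0.16. Grouped after their values were seen, the 14 subunits, inhibitors and survival adaptors were higher with malin in 4 and lower in 10 in the pair labelled H2030. In A549 11 were higher and 3 lower (10 and 3 after quantile normalization), and in H1299 1 was higher and 13 lower, with medians of -0.12, 0.16 and -0.13. In A549 these included NFKBIE, at 9.04 FPKM with malin against 6.08 FPKM with the empty vector (0.50), and BIRC3, at 25.1 against 18.0 FPKM (0.46). In H1299 the largest of the 14 was REL, at 1.65 FPKM with malin against 2.14 FPKM with the empty vector (-0.24). The epithelial marker sum moved too in A549, being lower with malin, and its part in these differences was not tested.

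The rest of the pathway was read from a list of 104 further genes (receptors, kinases and ubiquitin machinery, IkB-like factors, other targets and cytokine receptors), of which 73 had a mean of at least 1 FPKM. Limma called 0 of the 73 between the vectors. Past 1.5-fold, 5 were higher (CARD10, UBE2V1, NFKBID, IER3 and CXCR4) and 4 lower (TNFRSF12A, NFKBIL1, GADD45B and TRIB1) with malin in the pair labelled H2030. There were 2 higher (PLAU and BCL2A1) and 1 lower (IL11RA) in A549, and 0 higher and 1 lower (BCL2A1) in H1299. BCL2A1 lay under 1 FPKM in both H1299 libraries, at 0.13 FPKM with malin against 0.70 FPKM with the empty vector. It passed the filter through A549. Of all genes tested, 4.28% were higher and 7.33% lower by 1.5-fold in the pair labelled H2030, 0.542% and 0.566% in A549, and 0.328% and 0.148% in H1299, so the counts in the pair labelled H2030 are near its background. UBE2V1, NFKBID and TRIB1 were named after their values were seen. In the pair labelled H2030, TNFRSF12A, the receptor for the TNF-related ligand TWEAK, had 6.02 FPKM with malin against 40.3 FPKM with the empty vector (-2.56), and GADD45B, a stress-response target, had 6.97 against 16.8 FPKM (-1.16). TNFRSF12A differed by 0.35 in A549 and -0.13 in H1299, and GADD45B by 0.46 and 0.11. In the same pair CXCR4, a chemokine receptor, had 38.1 FPKM with malin against 20.8 FPKM with the empty vector (0.85). In A549, PLAU, the urokinase protease, had 122 FPKM with malin against 79.5 FPKM with the empty vector (0.61), and BCL2A1, an anti-apoptotic target, had 11.1 against 5.59 FPKM (0.88). LCN2, an iron-binding acute-phase protein under the filter, had 0.90 FPKM with malin against 4.46 FPKM with the empty vector in A549 (-1.52). CD83 (0.48) and PTGS2 (-0.50) also differed in A549. Among genes reaching 1 FPKM in H1299, the largest differences upward with malin were in MMP9 (0.51), CD40 (0.36) and IL11RA (0.36). Those downward were in CXCR4 (-0.53), TRADD (-0.44) and SAA1 (-0.33). The 24 kinase and ubiquitin genes, all of them tested, had 0 past 1.5-fold in A549 or H1299 and 2, CARD10 and UBE2V1, in the pair labelled H2030. Between lines, limma called 6 of the 73 higher and 27 lower in the pair labelled H2030 than in A549, 10 higher and 19 lower in it than in H1299, and 13 higher and 9 lower in A549 than in H1299. The same calls took in 20.8% and 10.6%, 19.0% and 10.7%, and 11.3% and 12.8% of all genes tested. As with the members, a gene that is high in 1 line can pass the filter through that line. LTBR, for example, had 59.6 FPKM (malin) and 65.2 FPKM (empty vector) in A549 and at most 0.61 FPKM elsewhere. These counts between lines therefore support nothing further.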

How the data were processed

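Per the labels' protocols, RNA came from a column kit and the libraries from Illumina protocols. The measurement is FPKM, and the authors deposited 1 table of it per library, with the unit in the column names. For the build hg38, the submitters' processing notes list the tools cutadapt, FastQC, STAR and Cufflinks without versions. Strand handling in counting: not given in the sources used here. The unit is relative to the library total, so a few abundant genes can shift the others.

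Libraries were grouped by their vector label and paired by their cell line label, with 1 library per line and vector. No label says whether cultures were independent, and none gives a batch. Log2(FPKM + 1) of the 12184 protein-coding genes with a mean of at least 1 FPKM entered limma (3.58.1, R 4.3.3; lmFit and eBayes with intensity trend), with Benjamini-Hochberg adjustment over all genes tested at 0.05. The model held line and vector, with 2 residual and a median of 3.9 prior degrees of freedom. The fit was tested on simulated data. Line contrasts also needed a 2-fold difference. The pseudocount of 1 FPKM makes fold changes of low genes too small.

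Fragment numbers and depth were estimated from the spacing of low FPKM values. Between 78.5% and 82.7% of these lay within 0.2 of a whole fragment, where 40% would by chance for a fixed step. The step was itself chosen in each library to fit these values best, so the 40% gives no test of it. Gene types and positions came from RefSeq on GRCh38.p14, transcripts and exon overlaps from GENCODE release 29. Sequence work used Python 3.11.15 and Biopython 1.88.

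The 35 members, their roles and the list of other pathway genes were chosen with earlier results of these data known. Every member reaching 1 FPKM in some library was to be named with its values, and of the other pathway genes up to 3 per direction and line with the largest difference among those reaching 1 FPKM in that line. Alternatives were pseudocounts of 0.1 and 5 FPKM, no filter or a mean of 5 FPKM, quantile normalization, median-of-ratios scaling, no intensity trend, no block, and leaving out each line or library.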

Additional observations from a re-analysis of the deposited data

Results flagged for a closer look

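TRAF1 moved in opposite directions by line. Its malin library was higher than the empty-vector library in A549 (log2 difference 0.59) and lower in the pair labelled H2030 (-0.39) and in H1299 (-0.21). With 1 library per line and vector, the difference between lines was not tested.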

How the results depend on the processing

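The cell line label pairs the libraries. With no replicate block limma called 0 members and 0 genes between the vectors, as with it. Leaving out each line gave 0 members and 0 to 1 genes, the 1 gene without the pair labelled H2030. Members past 1.5-fold depended on the pseudocount, since many are near 0. At 0.1 FPKM they were 4 higher and 3 lower with malin in the pair labelled H2030 and 4 higher and 1 lower in H1299, and past 2-fold 3 higher and 2 lower in that pair and 3 higher in H1299. TRAF1 in A549 and CCL2 in H1299 dropped out with a pseudocount of 5 FPKM, leaving 0 each, and TRAF1 also with quantile normalization (0). Between lines, members lower in A549 than in H1299 numbered 3 with a pseudocount of 5 FPKM and 3 to 5 with a library left out, 3 without the empty-vector library of A549 or of H1299. Members higher in the pair labelled H2030 than in H1299 numbered 1 with a pseudocount of 5 FPKM, with median-of-ratios scaling and with quantile normalization, and 1 to 3 with a library left out, 1 without its own empty-vector library. The mean TRAF1 difference (-0.0027) turned to 0.001 with a pseudocount of 5 FPKM, 0.02 with median-of-ratios scaling and 0.006 with quantile normalization, and ran from -0.30 to 0.19 with a line left out (0.10 without H1299). Of 643 recomputations of line contrasts called for single members at the settings used above, 25 lost their call and 0 reversed. Calls gained under an alternative were not counted there. Members lower in the pair labelled H2030 than in A549 numbered 19 with the filter, 15 with a pseudocount of 5 FPKM and 23 with quantile normalization. Of 504 differences within a line 38 moved by more than the spread. Depth limits members at 1 to 3 fragments.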
